A study of Mus musculus with 16 samples.

Results

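The TGF-beta and activin system was followed in mouse fat through 10 of its genes: the ligand genes Tgfb1, Tgfb2, Tgfb3, Inhba, Inhbb and Gdf15, the extracellular inhibitor gene Fst, and the receptor genes Tgfbr1, Tgfbr2 and Acvr1c. They were chosen by gene symbol, and all 10 were among the 20101 genes of the deposited expression table. TGF-beta ligands are secreted in a latent complex; once released, they are bound by the type II receptor TGFBR2, which phosphorylates the type I receptor TGFBR1, and receptor-activated SMAD proteins then carry the signal to the nucleus. Activins, dimers of the inhibin beta chains made from Inhba and Inhbb, use related receptors and are neutralised by follistatin, the product of Fst. In adipose tissue this system is known for its part in matrix deposition and in the restraint of adipocyte formation, and ALK7, the type I receptor encoded by Acvr1c, is known in mice as an adipocyte receptor that restrains lipolysis.

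The tissue was epididymal white adipose tissue (eWAT) of mice aged 21 weeks, profiled by RNA-seq of total RNA in 16 libraries, which form 4 groups of 4 mice. HFD KO and HFD WT mice were given a 60% fat diet (HFD) from 5 weeks of age, while chow KO and chow WT mice stayed on chow with 5% fat. The sample titles name the genotypes KO and WT, and the genotype field of the KO samples reads knockdown of ApoA4, so KO and WT stand here for the labels only. The labels name no strain and do not say how the allele was made.

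Levels are given in FPKM, which scale a gene's fragments to the length of its transcript and to the size of the library. The check of the labels went against them: Apoa4, the targeted gene, was at 8.69, 9.63, 7.23 and 4.93 FPKM in the libraries labelled HFD KO, against 0.29, 0, 0.08 and 0 FPKM in HFD WT libraries. On chow it measured 3.59, 1.96, 5.96 and 5.29 FPKM in the libraries labelled KO, against 0.29, 0.25, 0.23 and 0.09 FPKM in chow WT libraries. Every direction between genotypes below therefore rests on the labels alone. Transcripts of epididymis and testis were high in chow KO replicate 2 (12401.0 FPKM summed over 12 marker genes) and HFD KO replicate 4 (5911.5 FPKM), less so in HFD KO replicate 2 (341 FPKM), and between 0.34 and 46.9 FPKM in the other 13 libraries. Smooth muscle markers were highest in HFD KO replicate 2 (1033.3 FPKM summed over 8 genes) and chow KO replicate 2 (682 FPKM). In chow KO replicate 2, Actg2 alone made up 598 FPKM of that sum. The main differences that use these 3 libraries are given with and without them. Leaving them out keeps replicates 1 and 3 of HFD KO and replicates 1, 3 and 4 of chow KO, with all WT libraries.

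The sequences just upstream of the 4 members that rose on HFD are shown because those genes moved together in the diet comparisons below. RefSeq promoter windows on GRCm38.p6 matched 8 of the 10 members, and Tgfb3 and Fst had no entry. Gdf15 and Tgfbr1 had 2 entries each, of which the first is shown, and the window of the other lies wholly inside the annotated gene. Each sequence is the 250 bases before the annotated start, 5′ to 3′ on the gene's strand, with matches to the searched motifs in capitals. The windows are chr7:25686752-25687001 on the plus strand for Tgfb1, chr8:70632457-70632706 on the minus strand for Gdf15, chr4:47352972-47353221 on the plus strand for Tgfbr1 and chr9:116175364-116175613 on the minus strand for Tgfbr2.
Tgfb1: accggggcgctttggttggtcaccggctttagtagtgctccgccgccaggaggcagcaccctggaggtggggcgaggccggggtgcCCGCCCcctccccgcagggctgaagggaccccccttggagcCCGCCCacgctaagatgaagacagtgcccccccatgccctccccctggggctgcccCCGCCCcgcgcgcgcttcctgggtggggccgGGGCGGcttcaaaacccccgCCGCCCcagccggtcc
Gdf15: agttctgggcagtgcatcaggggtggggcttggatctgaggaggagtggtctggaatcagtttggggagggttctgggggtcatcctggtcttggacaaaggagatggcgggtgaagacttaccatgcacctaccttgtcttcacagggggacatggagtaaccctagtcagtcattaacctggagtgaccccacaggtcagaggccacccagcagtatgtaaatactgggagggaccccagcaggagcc
Tgfbr1: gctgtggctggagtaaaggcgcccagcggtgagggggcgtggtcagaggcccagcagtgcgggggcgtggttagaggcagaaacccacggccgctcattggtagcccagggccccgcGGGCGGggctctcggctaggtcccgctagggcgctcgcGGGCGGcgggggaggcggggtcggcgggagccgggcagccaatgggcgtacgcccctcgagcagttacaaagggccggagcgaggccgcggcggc
Tgfbr2: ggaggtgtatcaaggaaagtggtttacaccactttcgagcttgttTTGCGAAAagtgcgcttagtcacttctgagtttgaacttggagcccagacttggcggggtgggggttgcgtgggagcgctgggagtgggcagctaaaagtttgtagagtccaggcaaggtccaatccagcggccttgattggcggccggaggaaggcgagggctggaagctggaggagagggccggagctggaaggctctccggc

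The search covered both strands for 9 motifs: the GC box GGGCGG, the C/EBP half-palindrome TTGCNNAA, the AP-1 element TGACTCA, the CRE TGACGTCA, the C/EBP-ATF element TGATGCAA, the palindromic SMAD element GTCTAGAC, the E-box CACGTG, the TATA box TATAAA and the DR1 element of PPAR and RXR. No searched motif contains another. Tgfb1 held 5 GC boxes in a window of 75.2% G and C, and Tgfbr1 held 2 GC boxes in a window of 74.8% G and C. Tgfbr2 held a C/EBP match in a window of 58.4% G and C, and the Gdf15 window (56.4% G and C) held none of the motifs. The second Gdf15 window (chr8:70632096-70632345, minus strand) held an E-box, at position -83 from its start, and the second Tgfbr1 window (chr4:47385966-47386215, plus strand) held none of the motifs. Among 32817 RefSeq windows of the same length, 32.7% held a GC box and 9.57% the C/EBP motif. The other motifs were in 4.46% (AP-1), 1.55% (CRE), 0.792% (C/EBP-ATF), 0.168% (SMAD), 6.02% (E-box), 12.4% (TATA box) and 0.0335% (DR1) of them. A match describes these letters and is not a binding site. Of the 4 windows shown, those of Tgfb1 and Tgfbr1 shared the GC box. No motif could be common to all 4, since the Gdf15 window held none.

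On HFD, Tgfb1, Gdf15, Tgfbr1 and Tgfbr2 rose and Acvr1c fell in mice of both labels, and Tgfb3 fell in WT mice. Between the genotype labels no member passed the test on either diet. Differences were tested with limma on log2(FPKM + 1) over 12667 genes, and a gene was called at a Benjamini-Hochberg adjusted p under 0.05. In KO mice 5 of the 10 members were called between diets, 4 higher and 1 lower, where 38.9% of all tested genes were called, 23.5% higher and 15.3% lower. In WT mice 6 of 10 were called, 4 higher and 2 lower, where 41.9% of all tested genes were, 24.6% higher and 17.2% lower. Among all called genes, 60.5% were higher on HFD in KO mice and 58.8% in WT mice; this split depended on scaling, at 49.9% and 51.4% with median-of-ratios size factors and 42.3% and 45.8% with quantile normalization, while the called members kept their directions under both. The number of members called is therefore read as no more than the general reach of the diet in this tissue. The median log2 difference of the members was 0.22 in KO mice, where that of all tested genes was 0.08, and 0.40 in WT mice, where that of all tested genes was 0.06. In a bulk sample, a change in the number of cells of a type and a change in RNA per cell cannot be told apart.

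**Figure D1:**
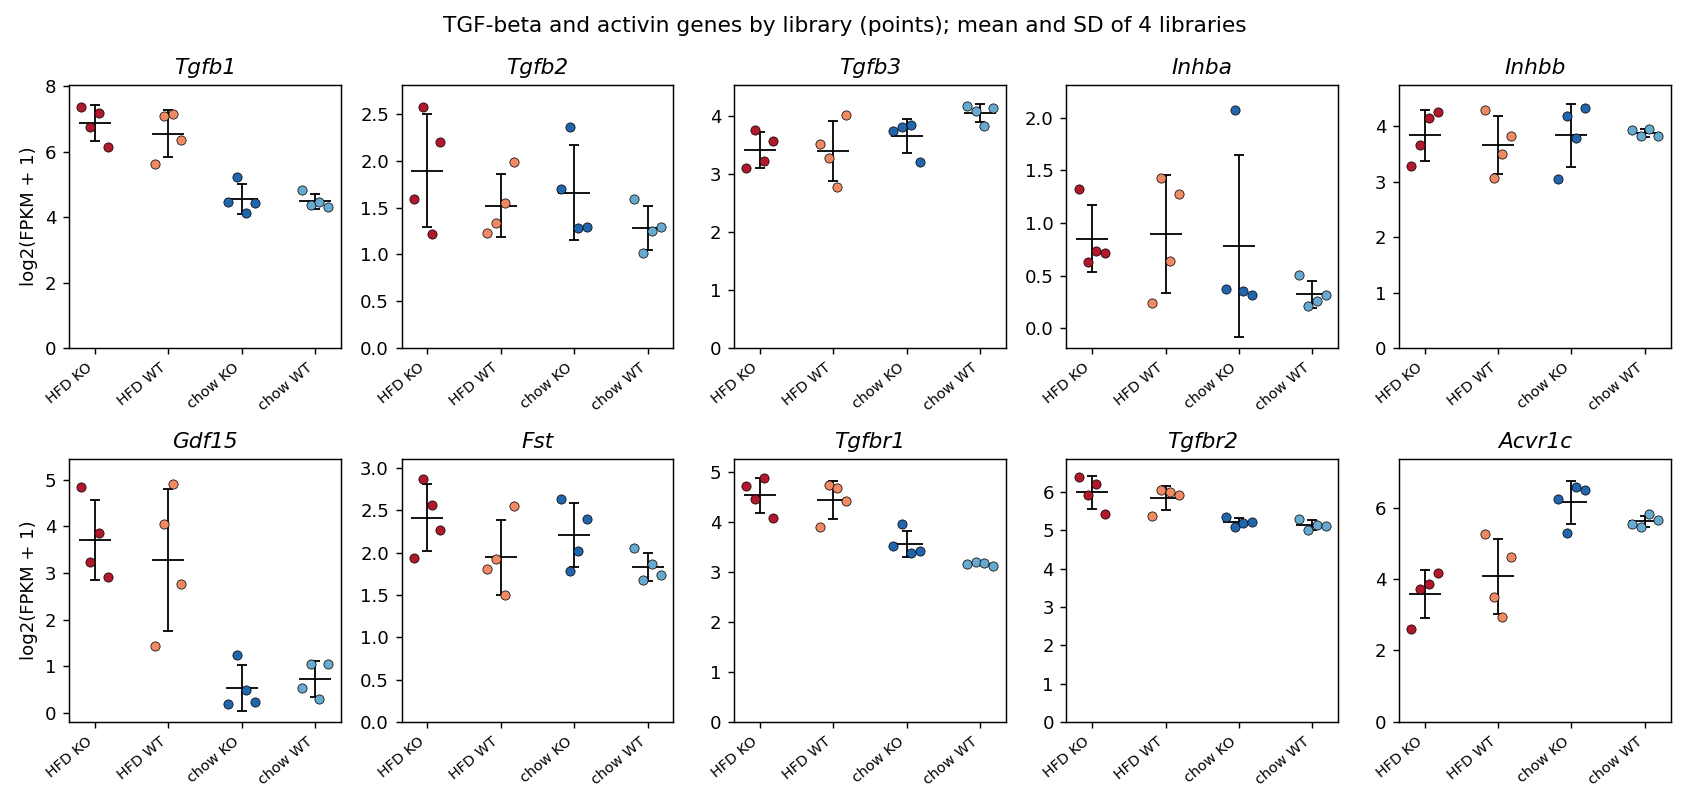
Level of each of the 10 genes as log2(FPKM + 1) on the vertical axis, by group on the horizontal axis, with 1 point per library and a bar for mean and SD of 4 libraries. Tgfb1, Gdf15, Tgfbr1 and Tgfbr2 sit higher and Acvr1c lower in the HFD groups than in the chow group of the same label, while chow KO replicate 2 stands alone at 3.21 FPKM for Inhba.

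Among the ligands, Tgfb1 (Entrez gene 21803, chromosome 7, 25687002 to 25705077, GRCm38), the TGF-beta isoform made by many immune and stromal cells, was the most abundant on HFD. Its level was 166, 108, 146 and 69.7 FPKM in HFD KO libraries, against 20.9, 36.4, 16.7 and 20.5 FPKM in chow KO libraries. In WT mice it was 48.0, 135, 141 and 81.8 FPKM on HFD, against 27.3, 19.6, 21.3 and 18.9 FPKM on chow. All 8 HFD libraries lay above all 8 chow libraries, with HFD WT replicate 1 and HFD KO replicate 4 the lowest of the HFD libraries. The log2 difference was 2.31 ± 0.34 (SE; 95% interval 1.59 to 3.04, limma adjusted p = 0.000246) in KO mice, a 5.19-fold ratio of mean FPKM. In WT mice the log2 difference was 2.06 ± 0.34 (SE; 95% interval 1.34 to 2.78, limma adjusted p = 0.000364), a 4.66-fold ratio.

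Gdf15 (Entrez gene 23886, chromosome 8, 70629393 to 70632456, GRCm38), which encodes a stress-induced circulating factor that acts through a hindbrain receptor, had the widest spread of the 10 genes. It was at 27.95, 8.37, 13.5 and 6.51 FPKM in HFD KO libraries, against 0.14, 1.38, 0.40 and 0.18 FPKM in chow KO libraries. The WT libraries held 1.69, 15.7, 28.9 and 5.79 FPKM on HFD, against 0.44, 1.07, 0.22 and 1.07 FPKM on chow. Every HFD library was above every chow library, but HFD WT replicate 1 only just, and the values of each HFD group were spread widely. The log2 difference was 3.17 ± 0.59 in KO mice (SE; 95% interval 1.91 to 4.44, limma adjusted p = 0.00119) and 2.56 ± 0.59 in WT mice (SE; 95% interval 1.29 to 3.83, limma adjusted p = 0.00349). The ratios of mean FPKM were 26.8 in KO mice and 18.6 in WT mice, more than the log2 differences amount to. The pseudocount of 1 raises a low chow level and so shrinks the log2 difference, which also compares means of logs.

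Tgfb3 (Entrez gene 21809, chromosome 12, 86056745 to 86079041, GRCm38), an isoform of mesenchymal tissues, moved the other way. It was at 7.58, 12.6, 8.33 and 10.9 FPKM in HFD KO libraries, against 12.3, 13.1, 13.5 and 8.28 FPKM in chow KO libraries, and the groups overlapped. WT libraries had 10.5, 8.70, 5.89 and 15.2 FPKM on HFD, against 17.1, 16.01, 13.2 and 16.5 FPKM on chow, with HFD WT replicate 4 inside the chow range. The log2 difference of -0.66 ± 0.23 in WT mice (SE; 95% interval -1.14 to -0.17) passed the test (limma adjusted p = 0.0319), and that of -0.24 in KO mice did not (limma adjusted p = 0.424). The WT call was lost without HFD WT replicate 2 or 3 or chow WT replicate 1, 2 or 4, with log2 differences from -0.64 to -0.45 and limma adjusted p from 0.0657 to 0.115. It was also lost with FPKM scaled to a constant sum (limma adjusted p = 0.061) or with no filter on low values (0.0513).

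Tgfb2, Inhba and Inhbb did not pass the test between diets. Tgfb2 (Entrez gene 21808, chromosome 1, 186622792 to 186705989), the third isoform, lay between 1.02 and 4.95 FPKM over the 16 libraries, with log2 differences of 0.24 in mice of either label. Inhbb (Entrez gene 16324, chromosome 1, 119415465 to 119422248), the chain of activin B, lay between 7.32 and 19.1 FPKM, with log2 differences of 0.00 in KO mice and -0.21 in WT mice. Inhba (Entrez gene 16323, chromosome 13, 16011851 to 16031621), the chain of activin A, reached 1 FPKM in 4 of 16 libraries. It was at 1.51, 0.55, 0.67 and 0.64 FPKM in HFD KO libraries, against 0.30, 3.21, 0.28 and 0.25 FPKM in chow KO libraries, and at 0.18, 1.70, 0.56 and 1.43 FPKM in HFD WT libraries, against 0.42, 0.16, 0.20 and 0.25 FPKM in chow WT libraries. Each pair of groups overlapped, and chow KO replicate 2 held the highest value. The log2 differences were 0.07 in KO mice (limma adjusted p = 0.894) and 0.57 in WT mice (0.216). Without the 3 libraries with epididymal transcripts, the Inhba difference in KO mice was 0.68 (limma adjusted p = 0.0801).

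Within the TGF-beta isoforms, Tgfb1 made up 94.5%, 86.0%, 93.8% and 82.8% of the summed FPKM of the 3 TGF-beta genes in HFD KO libraries, against 58.9%, 67.9%, 52.8% and 67.8% in chow KO libraries. In WT mice the share was 80.2%, 93.0%, 94.8% and 81.9% on HFD, against 58.9%, 53.5%, 59.3% and 51.2% on chow. No HFD library fell below the highest chow share. Tgfb3 supplied most of the remainder, at 4.32% to 12.9% in HFD KO libraries against 24.4% to 42.7% in chow KO libraries, and at 3.96% to 17.6% in HFD WT libraries against 36.8% to 44.9% in chow WT libraries. The shares are per length of transcript and were not tested.

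**Figure D2:**
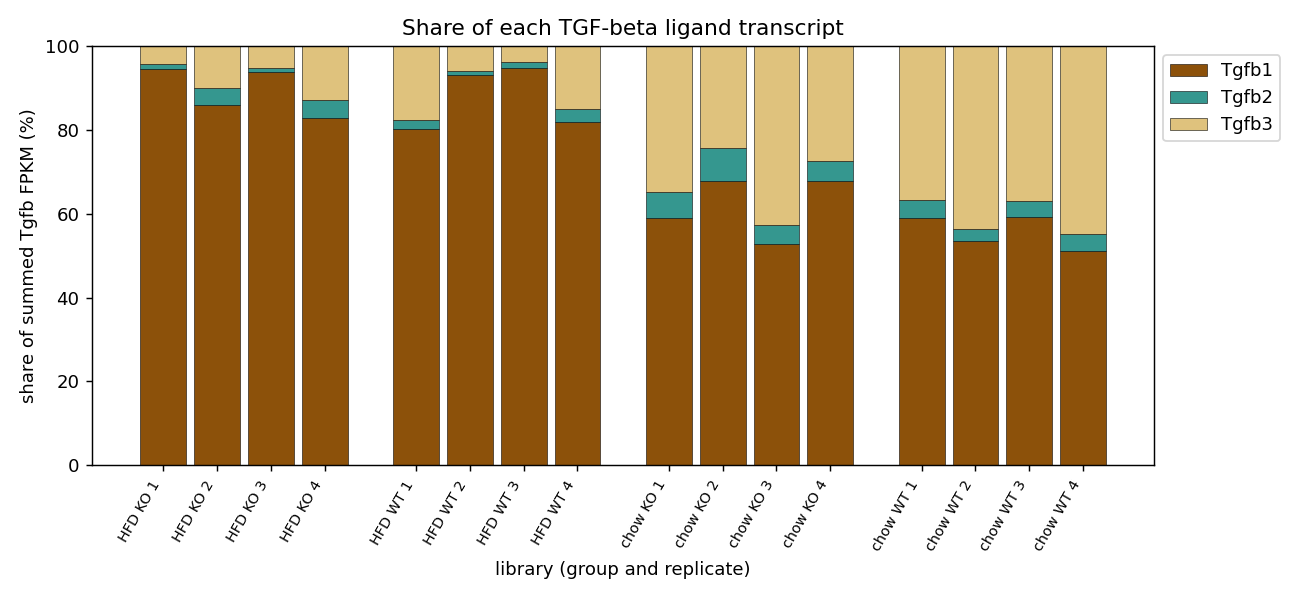
Share of Tgfb1, Tgfb2 and Tgfb3 in their summed FPKM, in percent on the vertical axis, with 1 bar per library on the horizontal axis, ordered by group and replicate. Tgfb1 takes 80.2% to 94.8% in the 8 HFD libraries and 51.2% to 67.9% in the 8 chow libraries.

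The inhibitor gene Fst (Entrez gene 14313, chromosome 13, 114452290 to 114458951, GRCm38) did not pass the test between diets. It was at 2.84, 6.29, 4.92 and 3.83 FPKM in HFD KO libraries, against 5.20, 2.44, 3.06 and 4.26 FPKM in chow KO libraries, and at 2.50, 2.81, 1.82 and 4.86 FPKM in HFD WT libraries, against 3.15, 2.20, 2.63 and 2.34 FPKM in chow WT libraries. The groups overlapped throughout, with log2 differences of 0.20 in KO mice (limma adjusted p = 0.535) and 0.11 in WT mice (0.736). Inhba stood below Fst in 15 of 16 libraries. Their log2 ratio was taken with the pseudocount of 1 added to both, which narrows the gap between low values. This log2 ratio was -0.61, -2.23, -1.83 and -1.56 in HFD KO libraries and -1.57, -0.50, -0.85 and -1.27 in HFD WT libraries. It was -2.25, 0.29, -1.67 and -2.07 in chow KO libraries and -1.55, -1.46, -1.60 and -1.42 in chow WT libraries, so only chow KO replicate 2 had more Inhba than Fst.

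Of the receptors, both chains that bind TGF-beta rose on HFD. Tgfbr1 (Entrez gene 21812, chromosome 4, 47353222 to 47414931, GRCm38), the type I chain, was at 25.3, 21.0, 28.5 and 15.98 FPKM in HFD KO libraries, against 10.4, 14.5, 9.46 and 9.67 FPKM in chow KO libraries. In WT mice it was at 13.97, 25.9, 24.6 and 20.3 FPKM on HFD, against 7.94, 8.16, 8.07 and 7.71 FPKM on chow. HFD and chow libraries of the same label did not overlap, and the chow WT values lay within a span of less than 0.5 FPKM. The log2 difference was 0.97 ± 0.20 in KO mice (SE; 95% interval 0.55 to 1.39, limma adjusted p = 0.00192) and 1.27 ± 0.20 in WT mice (SE; 95% interval 0.85 to 1.69, limma adjusted p = 0.000247).

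Tgfbr2 (Entrez gene 21813, chromosome 9, 116084293 to 116175360, GRCm38), the ligand-binding type II chain, was at 82.8, 59.9, 73.2 and 41.9 FPKM in HFD KO libraries, against 39.5, 33.2, 35.8 and 36.5 FPKM in chow KO libraries. In WT mice it was at 40.6, 65.7, 62.6 and 59.9 FPKM on HFD, against 38.5, 31.4, 33.9 and 33.3 FPKM on chow. The groups did not overlap, though HFD KO replicate 4 and HFD WT replicate 1 came close to the chow values. The log2 difference was 0.77 ± 0.19 in KO mice (SE; limma adjusted p = 0.00533) and 0.70 ± 0.19 in WT mice (SE; limma adjusted p = 0.00815). Per length of transcript, Tgfbr2 exceeded Tgfbr1 by 2.57 to 3.27 times in HFD KO libraries against 2.29 to 3.79 times in chow KO libraries, and by 2.53 to 2.95 times in HFD WT libraries against 3.85 to 4.85 times in chow WT libraries, a ratio that was not tested.

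Acvr1c (Entrez gene 269275, chromosome 2, 58267453 to 58357895, GRCm38) fell on HFD. It was at 5.10, 12.1, 13.5 and 16.8 FPKM in HFD KO libraries, against 74.1, 37.9, 95.1 and 89.8 FPKM in chow KO libraries. The level in WT mice was 37.1, 10.3, 6.69 and 23.4 FPKM on HFD, against 45.4, 42.9, 55.9 and 49.2 FPKM on chow. All HFD libraries lay below all chow libraries, by the smallest margin in HFD WT replicate 1 and chow KO replicate 2. The log2 difference was -2.57 ± 0.45 in KO mice (SE; 95% interval -3.52 to -1.61, limma adjusted p = 0.000789) and -1.54 ± 0.45 in WT mice (SE; 95% interval -2.49 to -0.59, limma adjusted p = 0.0128). On chow it was the most abundant of the 10 genes in both labels, averaging 74.2 FPKM in chow KO and 48.4 FPKM in chow WT libraries. On HFD it stood at rank 6 in KO mice, at 11.9 FPKM, and at rank 4 in WT mice, at 19.4 FPKM.

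HFD and chow groups did not overlap for 5 members in mice of each label, where 28.7% of all tested genes did not overlap in KO mice and 46.9% in WT mice. Without the 3 libraries with epididymal transcripts, the KO differences of the called members were larger: 2.95 for Tgfb1, 4.05 for Gdf15, 1.36 for Tgfbr1, 1.05 for Tgfbr2 and -3.21 for Acvr1c on the log2 scale. All 5 stayed past the threshold there, with limma adjusted p between 0.000105 and 0.000877.

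**Figure D3:**
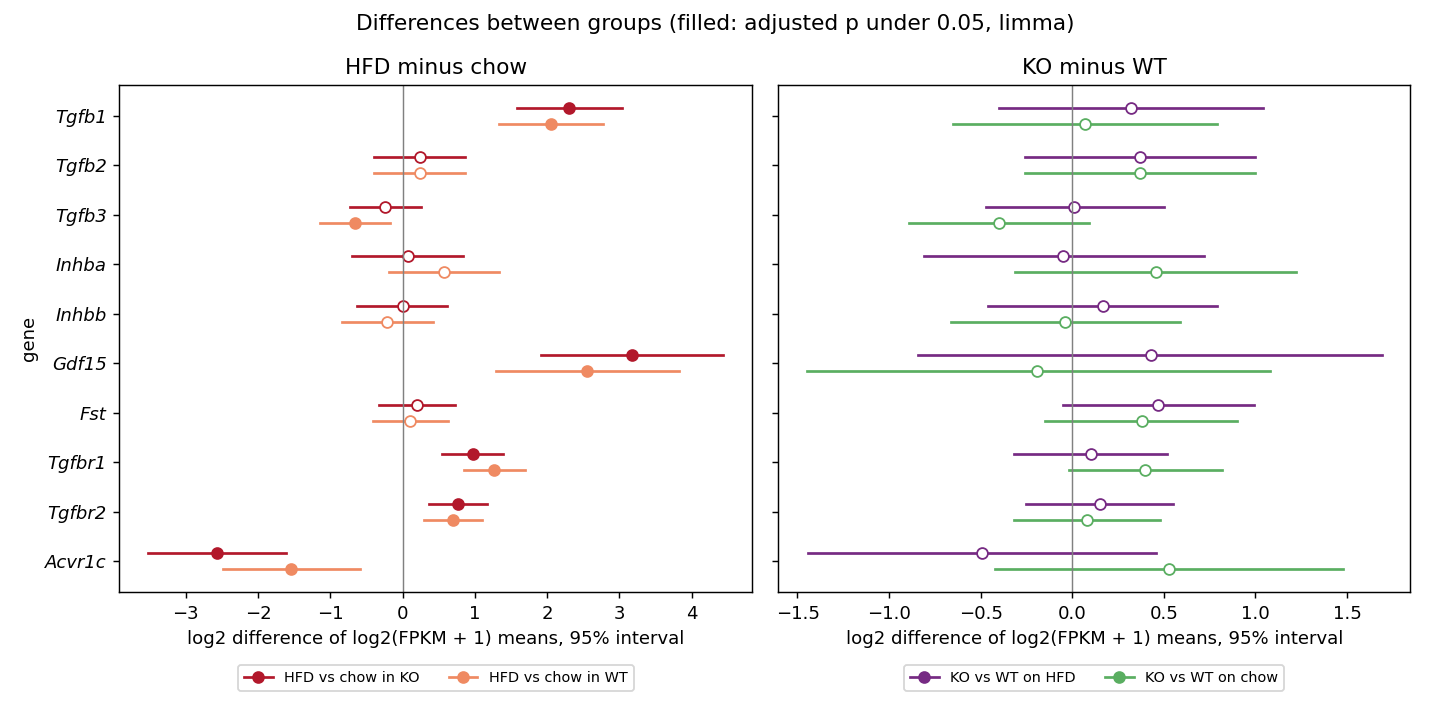
Log2 difference of each gene on the horizontal axis with its 95% interval, HFD minus chow on the left and KO minus WT on the right, with genes down the vertical axis and filled points for adjusted p under 0.05. Between diets 5 genes are filled in KO mice and 6 in WT mice, while every KO minus WT point is open.

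Order of level differed between diets. In HFD KO libraries mean FPKM ran Tgfb1 (122), Tgfbr2 (64.5), Tgfbr1 (22.7), Gdf15 (14.1), Inhbb (13.8), Acvr1c (11.9), Tgfb3 (9.85), Fst (4.47), Tgfb2 (2.97) and Inhba (0.843), with library ranges apart only between Tgfbr2 and Tgfbr1 and between Tgfb3 and Fst. In HFD WT libraries Tgfb1 (101), Tgfbr2 (57.2) and Tgfbr1 (21.2) again led and Inhba (0.968) was last, with ranges apart between the same neighbours. In chow KO libraries the order began with Acvr1c (74.2), Tgfbr2 (36.2) and Tgfb1 (23.6) and ended with Inhba (1.01) and Gdf15 (0.525), and only Tgfbr1 and Fst, at ranks 6 and 7, had ranges apart. In chow WT libraries Acvr1c (48.4), Tgfbr2 (34.3), Tgfb1 (21.7) and Tgfb3 (15.7) followed each other with ranges apart, while Tgfb3 and Inhbb (13.7), Tgfb2 (1.46) and Gdf15 (0.700), and Gdf15 and Inhba (0.258) overlapped.

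Macrophage and adipocyte transcripts moved with these genes. Of 12 macrophage markers, 11 rose on HFD in KO mice and 10 in WT mice, with a sum of 2094.1 to 7750.5 FPKM in HFD KO libraries against 721 to 869 FPKM in chow KO libraries, and 1664.5 to 7147.2 FPKM in HFD WT libraries against 886 to 957 FPKM in chow WT libraries. Of 12 adipocyte markers, 10 fell in KO mice and 9 in WT mice, with a sum of 4292.5 to 16144.9 FPKM in HFD KO libraries against 18738.4 to 44125.1 FPKM in chow KO libraries, and 6674.4 to 20125.1 FPKM in HFD WT libraries against 35142.2 to 37623.7 FPKM in chow WT libraries. No marker of either list was at 0 in any library. Within the HFD groups, HFD WT replicate 1 and HFD KO replicate 4 had the lowest mean log2(FPKM + 1) of the macrophage markers, at 5.84 and 5.98, and HFD WT replicate 1 the highest of the adipocyte markers, at 9.09. HFD WT replicate 1 was also the HFD library with the lowest Tgfb1, Gdf15, Tgfbr1 and Tgfbr2 and the highest Acvr1c. All marker counts stand beside the 38.9% and 41.9% of all tested genes called between diets in KO and WT mice. Of 10 fibroblast and progenitor markers, 3 rose and 0 fell in KO mice and 3 rose and 2 fell in WT mice, near those shares. Without the 3 libraries with epididymal transcripts 6 of the 10 were called in KO mice. Among the other lists, 0 rose and 4 fell in KO mice and 0 rose and 5 fell in WT mice of 8 mesothelial markers (2 called in KO mice without those 3 libraries), and 2 of 5 tested T and B cell markers fell in WT mice. In KO mice 1 of 8 endothelial and 1 of 7 tested smooth muscle markers rose, and 0 of 6 tested epididymis and testis markers were called by limma in either diet comparison, also at an unadjusted p under 0.05. Without the 3 libraries with epididymal transcripts 3 of those 6 were called in WT mice, and without HFD KO replicate 3 alone 1 was called in KO mice. Single libraries moved other small counts too. Without HFD KO replicate 4, 5 fibroblast and progenitor, 2 smooth muscle and 1 T and B cell markers were called in KO mice. Without HFD WT replicate 3 or chow WT replicate 3, 3 fibroblast and progenitor markers were called in WT mice. The endothelial call in KO mice was lost without HFD KO replicate 1 or 3 or chow KO replicate 3, and without chow WT replicate 1 there was 1 endothelial call in WT mice. The 2 T and B cell calls became 1 without any 1 WT library other than HFD WT replicate 4. The part of cell makeup in the differences of the members was not tested.

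**Figure D4:**
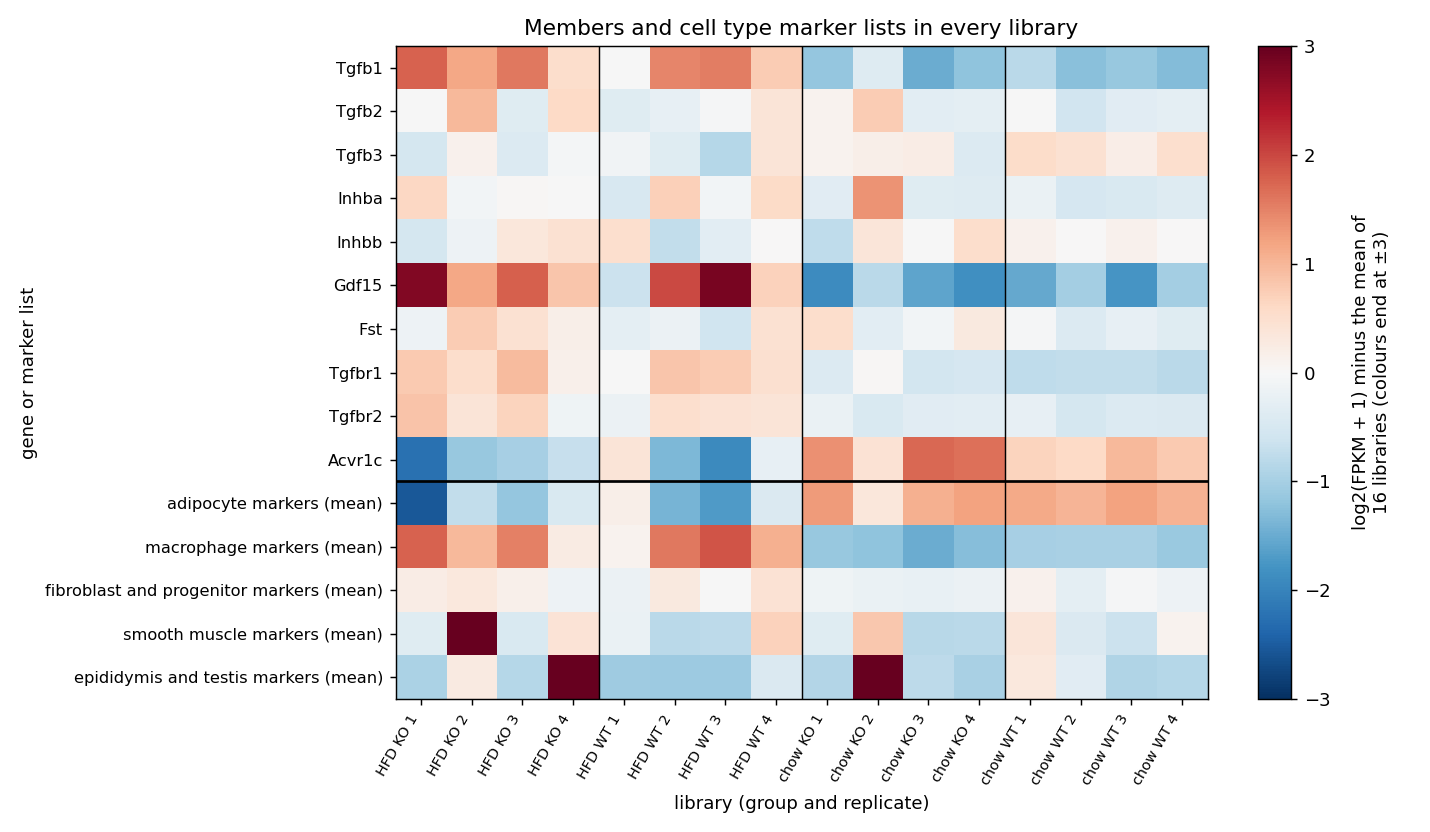
Colour shows log2(FPKM + 1) less the mean of 16 libraries for the 10 genes (upper block) and for the mean of 5 cell type marker lists (lower block), with libraries by group and replicate on the horizontal axis. Tgfb1, Gdf15, Tgfbr1 and Tgfbr2 are mostly red where the macrophage markers are, but not in HFD WT replicate 1, nor Tgfbr2 in HFD KO replicate 4. Acvr1c is red where the adipocyte markers are, and the epididymal markers are dark in HFD KO replicate 4 and chow KO replicate 2.

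Profiles nearest to a member were sought among 12270 tested genes by the root mean square difference of centred log2(FPKM + 1) over the 16 libraries, for the 4 members of largest SD. For Gdf15 (SD 1.71) they were Ccl3, a macrophage chemokine (0.26), Tnfaip2 (0.36) and Ly9, a leukocyte surface receptor (0.37). For Tgfb1 (SD 1.23) they were Shtn1 (0.15), Efhd2 (0.16) and Prkcd, a protein kinase C (0.16), and for Tgfbr1 (SD 0.65) the small GTPase gene Arf6 (0.13), Elmo2 (0.14) and Mid1 (0.16). For Acvr1c (SD 1.26) they were Chpt1, of phosphatidylcholine synthesis (0.30), the potassium channel gene Kcns3 (0.31) and the dehydrogenase gene Adhfe1 (0.31). The 16 points share the diet groups and the cell makeup described above, so nearness is a description.

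Between the labels on HFD, none of the 10 members was called, where 0.0316% of all tested genes were. Limma adjusted p ran from 0.457 (Fst) to 0.988 (Tgfb3), and no member had an unadjusted p under 0.05. The log2 differences of KO over WT were 0.32 for Tgfb1 (95% interval -0.40 to 1.04), 0.43 for Gdf15 (-0.84 to 1.69), 0.47 for Fst (-0.05 to 0.99), 0.10 for Tgfbr1 (-0.32 to 0.52), 0.15 for Tgfbr2 (-0.25 to 0.55) and -0.49 for Acvr1c (-1.44 to 0.46). All 10 members overlapped between the labels, where 6.83% of all tested genes did not. Without the 3 libraries with epididymal transcripts the log2 differences were 0.74 for Tgfb1, 1.07 for Gdf15, 0.31 for Fst, 0.36 for Tgfbr1, 0.46 for Tgfbr2 and -0.84 for Acvr1c, and no member was called (smallest limma adjusted p = 0.269, for Tgfbr2).

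On chow, none of the 10 was called either, where 1.41% of all tested genes were, with no unadjusted p under 0.05 and limma adjusted p from 0.363 (Tgfbr1) to 0.973 (Inhbb). Tgfbr1, already given by library above, was the member whose groups did not overlap, with every chow KO library above every chow WT library. Its log2 difference was 0.40 (95% interval -0.02 to 0.82), and 15.2% of all tested genes did not overlap in this comparison, 8.94% with the KO libraries higher. Acvr1c differed by 0.53 (95% interval -0.42 to 1.48), Tgfb3 by -0.40 (-0.89 to 0.09) and Tgfb1 by 0.07 (-0.65 to 0.79). With the 3 libraries left out, Tgfbr1 differed by 0.27, Acvr1c by 0.82, Tgfb3 by -0.45 and Tgfb1 by -0.15, and no member was called (smallest limma adjusted p = 0.334, for Fst).

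The interaction asks whether the diet difference in KO mice differs from that in WT mice. None of the 10 members was called, where 0.292% of all tested genes were, and none had an unadjusted p under 0.05. The smallest limma adjusted p was 0.648, for Acvr1c, whose diet difference in KO mice was 1.02 lower on the log2 scale (-1.02, 95% interval -2.37 to 0.32). With the 3 libraries left out it was -1.67 (limma adjusted p = 0.28). Over both diets together, 0 members were called, where 0.442% of all tested genes were, and 1 had an unadjusted p under 0.05: Fst, at a log2 difference of 0.42 (95% interval 0.05 to 0.79, limma adjusted p = 0.245).

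The rest of the pathway was read from lists of genes by role, and their counts stand beside the same 38.9% and 41.9% of all tested genes called between diets in KO and WT mice. No gene of these lists passed the limma test between the labels on HFD, where 0 to 2 genes a list had an unadjusted p under 0.05. Over these lists and the stress genes below, the interaction was called only for Thbs1 and Chac1. Any other gene given for a single label was therefore not shown to be particular to it. Of 9 tested receptor genes of the superfamily outside the members, 2 rose and 2 fell on HFD in KO mice, and 1 rose and 2 fell in WT mice, with medians of -0.23 and -0.21. Acvr1, a BMP and activin type I receptor, fell by 0.63 (limma adjusted p = 0.00602) in KO mice and by 0.90 (0.000549) in WT mice. Acvrl1, an endothelial type I receptor, rose by 0.71 (0.00697) in KO mice and by 0.58 (0.0191) in WT mice, and Eng, its co-receptor, rose by 0.97 in KO mice (0.00409). Tgfbr3, the betaglycan co-receptor, fell by 0.87 in WT mice (0.0042), and Bmpr1a, named after its value was seen, fell by 0.77 in KO mice (0.0215). The Acvrl1 call in WT mice was lost without HFD WT replicate 3 (limma adjusted p = 0.0706) or chow WT replicate 3 (0.0551).

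Of 16 Smads and Smad regulators, 2 rose and 3 fell on HFD in KO mice (median log2 difference 0.03), and 2 rose and 4 fell in WT mice (median -0.12). Smad5, a BMP-pathway Smad, fell by 0.94 (limma adjusted p = 0.000103) in KO mice and by 0.48 (0.00521) in WT mice. Tgif1, a repressor of Smad-driven transcription, rose by 2.06 in KO mice (limma adjusted p = 0.0033), and Smad9 fell by 1.12 in WT mice (0.00376). Smad9 was low throughout, at 0.12 to 0.31 FPKM in HFD WT libraries against 1.28 to 2.04 FPKM in chow WT libraries. Zfyve9, a Smad anchor, fell by 0.46 (0.00383) in KO mice and by 0.49 (0.00225) in WT mice. Named after their values were seen, Smurf1 fell by 0.43 (0.0115) and Ski rose by 0.55 (0.0434) in KO mice.

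Of 8 tested other ligand genes among 23 listed, 3 rose and 0 fell on HFD in KO mice (median log2 difference 0.25), and 3 rose and 2 fell in WT mice (median -0.08). Gdf3, Gdf11 and Lefty1 reached at most 0.38, 0.82 and 0.97 FPKM in any chow library, so they passed the filter of 1 FPKM through HFD libraries alone. A gene chosen that way leans towards a rise, so the count of rises is not read as a result. The 5 calls in WT mice became 2 without HFD WT replicate 2 or 3 or chow WT replicate 3 or 4, and 3 without chow WT replicate 2. Gdf3, reported in mice as a ligand of ALK7, was at 8.63, 7.99, 9.70 and 3.84 FPKM in HFD KO libraries, against 0.14, 0.38, 0.07 and 0 FPKM in chow KO libraries. Gdf3 in WT mice was at 3.13, 8.98, 15.4 and 5.70 FPKM on HFD, against 0, 0.04, 0.04 and 0 FPKM on chow. All HFD libraries stood well above all chow libraries, and the log2 differences were 2.84 (limma adjusted p = 5.96e-05) in KO mice and 3.01 (2.27e-05) in WT mice, the opposite direction to Acvr1c. Gdf11 rose by 0.84 in KO mice (0.00174) and by 0.52 in WT mice (0.0221), Bmp3 rose by 1.40 in KO mice (0.0176), and Bmp2 fell by 0.91 in WT mice (0.00481). The Gdf11 call in WT mice was lost without HFD WT replicate 2 or 3 or chow WT replicate 3 or 4 (limma adjusted p from 0.0512 to 0.0712), and the Bmp3 call without HFD KO replicate 2 (0.056), chow KO replicate 1 (0.0536) or the 3 libraries with epididymal transcripts (0.348). Named after their values were seen, Lefty1 rose by 0.51 (0.0331) and Gdf10 fell by 1.18 (0.0372) in WT mice.

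Of 19 tested genes of latency, activation and ligand trapping, 10 rose and 2 fell on HFD in KO mice (median log2 difference 0.54), and 7 rose and 4 fell in WT mice (median 0.02). Lrrc32, which tethers latent TGF-beta to the cell surface, rose by 1.45 (limma adjusted p = 0.00104), and the proteoglycan Bgn by 1.56 (0.00118), in KO mice. In WT mice the BMP antagonist Chrdl1 fell by 2.66 (limma adjusted p = 0.000446) and the follistatin-like gene Fstl1 rose by 1.34 (0.00116). Mean FPKM moved the same way in the other label. In KO mice Chrdl1 went from 89.7 on chow to 23.2 on HFD and Fstl1 from 63.4 to 138. In WT mice Lrrc32 went from 4.88 to 8.10 and Bgn from 170 to 359.

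Thbs1, thrombospondin, an activator of latent TGF-beta, was the gene of this list that differed between the labels. On chow it was at 6.39, 4.89, 36.4 and 24.1 FPKM in the libraries labelled KO, against 275, 415, 458 and 389 FPKM in WT libraries. On HFD it was at 94.3, 76.6, 64.5 and 41.6 FPKM in the libraries labelled KO, against 101, 103, 50 and 76.1 FPKM in WT libraries, so the labels overlapped on HFD and lay far apart on chow. The log2 difference of KO over WT on chow was -4.74 ± 0.48 (SE; limma adjusted p = 0.000152), and the interaction was 4.48 (limma adjusted p = 0.0112). Thbs1 rose on HFD in KO mice by 2.25 on the log2 scale (limma adjusted p = 0.00271), and in WT mice it fell by 2.24 (0.00229). Without the 3 libraries with epididymal transcripts the genotype difference on chow was -4.31 (limma adjusted p = 0.000312) and the interaction 4.29 (0.0166).

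Of 22 genes that TGF-beta is known to induce or repress, 14 rose and 1 fell on HFD in KO mice (median log2 difference 1.34), and 8 rose and 1 fell in WT mice (median 0.58). Without the 3 libraries with epididymal transcripts 18 of the 22 were called in KO mice and 12 in WT mice. In KO mice the matrix genes Postn and Col1a1 rose by 2.81 (limma adjusted p = 0.000656) and 2.35 (0.00151), and the protease inhibitor gene Timp1 by 4.15 (0.000686). In WT mice Col1a1 rose by 2.43 (0.000929) and Timp1 by 3.68 (0.00104). Id1 fell by 1.64 in WT mice (0.000108). Mean FPKM moved the same way in the other label, from 19.3 on chow to 9.47 on HFD for Id1 in KO mice and from 32.0 to 175 for Postn in WT mice. Most macrophage markers given above rose in the same comparisons. Of the 10 fibroblast and progenitor markers, 3 were called in KO mice and 5 in WT mice, near the 38.9% and 41.9% of all tested genes. The part of either cell type was not tested.

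On chow, 3 of the 22 response genes were lower in the libraries labelled KO and 0 were higher. Of all tested genes 1.41% were called in that comparison. On HFD 0 of 22 passed the limma test, where 0.0316% of all tested genes did, and 1 had an unadjusted p under 0.05. Ccn2, a matricellular growth factor gene, was at 3.14, 9.94, 4.07 and 6.31 FPKM in chow KO libraries, against 26.1, 13.8, 17.3 and 21.9 FPKM in chow WT libraries, a log2 difference of -1.66 ± 0.30 (SE; limma adjusted p = 0.0116). Acta2, smooth muscle actin, was at 29.0, 37.7, 26.7 and 16.4 FPKM in chow KO libraries, against 151, 275, 95.3 and 300 FPKM in chow WT libraries (log2 difference -2.77, limma adjusted p = 0.0352). Neither of these genes overlapped between the labels on chow, where 15.2% of all tested genes did not overlap. Of the 7 tested smooth muscle markers 0 were called by limma in that comparison and 1 had an unadjusted p under 0.05.

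The call of Ccn2 was lost without chow WT replicate 4 (limma adjusted p = 0.0513). That of Acta2 was lost without any chow library other than WT replicate 3 (0.0597 to 0.138), and with no filter on low values (0.067). With all 3 libraries with epididymal transcripts left out, both genes stayed past the threshold on chow. The log2 differences there were -1.92 for Ccn2 (limma adjusted p = 0.00573) and -2.94 for Acta2 (0.0057). The interaction was called for neither Ccn2 nor Acta2, so a difference of their genotype effects between diets was not shown. Over both diets Ccn2 was lower in the libraries labelled KO by a log2 difference of -1.09 (limma adjusted p = 0.0347), a call that was lost with any of 13 libraries left out in turn (0.0506 to 0.0897).

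**Figure D5:**
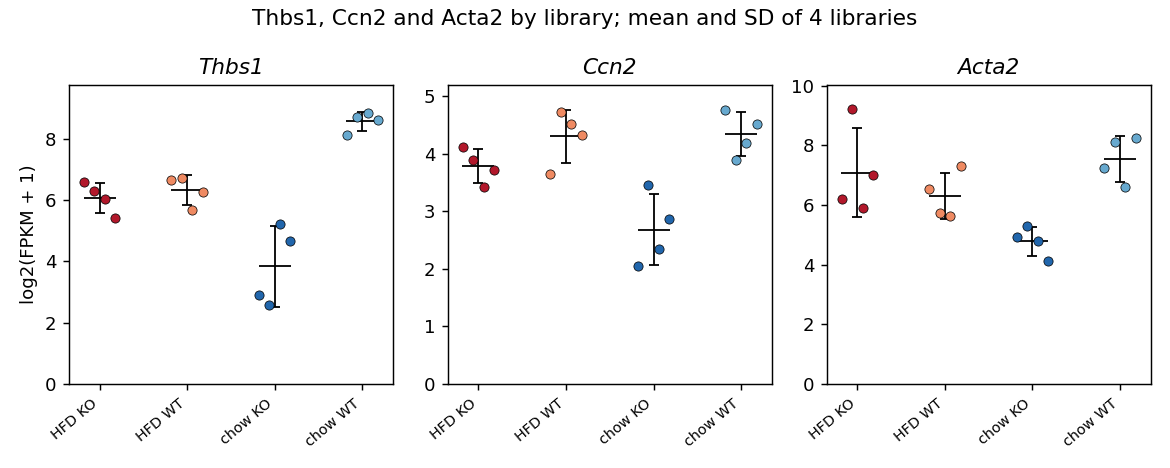
Levels of Thbs1, Ccn2 and Acta2 as log2(FPKM + 1) on the vertical axis by group on the horizontal axis, with 1 point per library and a bar for mean and SD of 4 libraries. In chow KO libraries Thbs1 stands at 4.89 to 36.4 FPKM, below the 275 to 458 FPKM of chow WT libraries, and Ccn2 and Acta2 are also lowest in the chow KO group.

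Gdf15 is a known target of the integrated stress response and was read beside other genes of that response. Of 11 tested genes, 2 rose and 2 fell on HFD in KO mice (median log2 difference -0.04), and 2 rose and 5 fell in WT mice (median -0.51). Atf3, a stress-induced transcription factor, rose by 3.76 in KO mice (limma adjusted p = 1.82e-05) and by 3.86 in WT mice (7.91e-06), and Cebpb rose by 1.11 in KO mice (0.00348). Asns, asparagine synthetase, fell by 1.59 in KO mice (0.00016) and by 2.22 in WT mice (9.43e-06), Phgdh, named after its value was seen, fell by 1.79 in KO mice (0.0276), and Chac1 fell by 2.17 in WT mice (1.77e-05). On chow, Chac1 was lower in the libraries labelled KO by a log2 difference of -1.67 (limma adjusted p = 0.0022), Trib3 by -0.95 (0.0222) and Sesn2 by -1.08 (0.0365), and the interaction was called for Chac1 (1.94, limma adjusted p = 0.0196). Trib3 lost its call without chow KO replicate 1 or 2 or chow WT replicate 1, 2 or 4 (limma adjusted p up to 0.0789), Sesn2 without any chow library other than KO replicate 3 and without HFD KO replicate 2 or 3 (up to 0.122) or the 3 libraries with epididymal transcripts (0.0728), and the Chac1 interaction without chow WT replicate 2, 3 or 4 (up to 0.0629) or the 3 libraries with epididymal transcripts (0.0569).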

How the data were processed

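RNA-seq was done on eWAT of 16 mice, 4 per group, as paired reads, per the labels' protocols. The authors deposited FPKM values; the submitters' processing notes name STAR 2.7, GRCm38.p6 and mm10, and nothing used here names the counting tool, its annotation or the strand. Of 20101 gene entries, 19945 matched the gene table by Entrez number and 156 did not. Another 14408 circular RNA entries and 1 blank entry were left out. FPKM carry no read numbers, so depth per gene is unknown. Steps of the circular RNA values put relative library depth at 0.756 to 1.43. The 4 chow KO libraries were the lowest, at 0.88, 0.862, 0.784 and 0.756, and every other library was at 0.889 or more. The part of depth in the differences of chow KO was not tested. The precision of each value was read from the spread between mice.

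A gene was tested if it reached 1 FPKM in 4 or more libraries, which kept 12667 genes, all 10 members among them, and left out 7434. Inhba reached it in exactly 4. A permutation test planned for members under this filter was not needed. Values were log2(FPKM + 1), fitted with limma 3.58.1 in R 4.3.3 with 4 group means, a variance trend and Benjamini-Hochberg adjustment over all tested genes, and the fit was tested on simulated data. P-values measure the spread between these libraries, each taken as 1 mouse. Members and lists were chosen with earlier results of these data known. Of each pathway list, the text names the 3 called genes of smallest p per diet comparison and all called between genotypes. Alternatives covered scaling, pseudocount, filter, variance trend, replicate block, the groups fitted, each library left out and the 3 libraries with epididymal transcripts.

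Replicate numbers did not pair the libraries. Positions are from GENCODE M21 on GRCm38. With strand unknown, reads of antisense genes that share exon bases with Tgfb2, Tgfb3, Fst and Acvr1c cannot be told apart from theirs. The marker lists were adipocyte, macrophage, fibroblast and progenitor, mesothelial, endothelial, smooth muscle, T and B cell, and epididymis and testis. Values of some single genes of the lists are not reported here, although the list counts include them.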

Additional observations from a re-analysis of the deposited data

Results flagged for a closer look

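Inhba in HFD KO libraries stood at 1.51 FPKM in replicate 1, against 0.55 to 0.67 FPKM in the other 3, a gap of 0.845 of the group's range. Inhba in chow KO libraries stood at 3.21 FPKM in replicate 2, against 0.25 to 0.30 FPKM in the other 3, a gap of 0.968 of the range. Both exceed the critical value of Dixon's test for 4 libraries, which chance alone does in about 1 of 20 groups; 40 gene and group pairs were looked at. Chow KO replicate 2 also held 12401.0 FPKM of epididymis and testis markers, 682 FPKM of smooth muscle markers (598 FPKM of it Actg2) and 262 FPKM of mesothelial markers. The part of these transcripts in the Inhba value was not tested.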

How the results depend on the processing

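Between diets in WT mice 6 members were called, and 5 with a constant sum, with no filter, or without HFD WT replicate 2 or 3 or chow WT replicate 1, 2 or 4, since Tgfb3 lost its call there. In the other 5 comparisons the number of members called stayed the same under the alternatives run and with each library left out. Of 1642 alternative values of the 60 member results, 1544 kept direction and side of the threshold, 7 lost a call (all Tgfb3 between diets in WT mice), 0 gained 1 and 91 turned sign, none of them from a called result. The cause of each turn was not tested. Replicate numbers did not pair the libraries (correlations of same-numbered deviations -0.63 to 0.367), and with the replicate block the members called were still 5 and 6 between diets in KO and WT mice and 0 in the other comparisons. Depth per gene is unknown, so low genes such as Inhba carry a counting error that cannot be given.

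Log2 differences that turned sign, HFD over chow in KO mice: without the 3 epididymal libraries Tgfb2 was -0.02 and Fst -0.10, with quantile normalization Inhba was -0.15, and Inhbb was 0.02 with a constant sum and 0.03 with the epididymal covariate. For KO over WT on HFD, Tgfb3 was -0.10 with median-of-ratios scaling and also with quantile normalization, -0.01 with a constant sum and -0.06 with the covariate. Without the 3 epididymal libraries Tgfb2 was -0.12, Tgfb3 -0.24 and Inhba 0.14, while Inhba was 0.06 with a pseudocount of 0.1 and Tgfbr1 -0.02 with median-of-ratios scaling. For KO over WT on chow, median-of-ratios scaling gave -0.02 for Tgfb1 and -0.01 for Tgfbr2, and Tgfb1 was -0.15 without the 3 libraries.

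For the interaction, Tgfb2 was -0.04 with a constant sum, -0.02 with median-of-ratios scaling, -0.10 with quantile normalization, -0.04 and -0.02 with pseudocounts of 0.1 and 0.5, and -0.01 with the covariate. Without the 3 epididymal libraries the interaction was -0.25 for Tgfb2, 0.11 for Inhba, -0.21 for Fst and 0.09 for Tgfbr1. Over both diets, median-of-ratios scaling gave -0.04 for Inhbb and -0.08 for Acvr1c, quantile normalization -0.03 and -0.05 for them, and leaving out the 3 libraries -0.05 and -0.01. There the covariate gave -0.05 for Inhbb and -0.02 for Inhba, and a pseudocount of 0.1 gave -0.01 for Gdf15.

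With each library left out in turn, the differences that turned sign ran as follows. HFD over chow, Inhba ran from -0.09 to 0.50 and Inhbb from -0.27 to 0.18 in KO mice, and Fst from -0.09 to 0.26 in WT mice. KO over WT on HFD ran from -0.19 to 0.22 for Tgfb3, -0.27 to 0.13 for Inhba, -0.04 to 0.38 for Inhbb, -0.20 to 0.96 for Gdf15, -0.08 to 0.25 for Tgfbr1 and 0.00 to 0.34 for Tgfbr2. On chow it ran from -0.15 to 0.21 for Tgfb1 and -0.20 to 0.22 for Inhbb. The interaction ran from -0.06 to 0.49 for Tgfb1, -0.23 to 0.23 for Tgfb2, -0.06 to 0.41 for Inhbb, -0.01 to 1.15 for Gdf15, -0.06 to 0.29 for Fst and -0.08 to 0.26 for Tgfbr2. Over both diets it ran from -0.01 to 0.29 for Inhba, -0.04 to 0.19 for Inhbb, -0.19 to 0.39 for Gdf15 and -0.17 to 0.22 for Acvr1c.

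Counts over all genes moved more. KO against WT on HFD called 4 genes, and 8 with median-of-ratios or quantile scaling, 0 with a mean FPKM of at least 5, 2 with the groups compared alone, 7 with the covariate and 40 without the 3 epididymal libraries. On chow the 178 calls became 115 with the replicate block and 357 with the groups compared alone, the 37 of the interaction 18 with the block and 65 without the 3 libraries or with the covariate, and the 56 over both diets 95 with median-of-ratios scaling, 25 with the block and 23 with the covariate. With 1 library left out, calls between genotypes ran from 3 to 10 on HFD (10 without HFD KO replicate 3, 8 without chow KO replicate 2) and from 55 to 231 on chow (55 to 90 without any 1 chow WT library, 87 without chow KO replicate 1). The interaction ran from 12 to 45 (12 to 21 without any 1 chow WT library, 24 without HFD KO replicate 2), and calls over both diets from 16 to 84 (16 to 18 without chow WT replicate 2, 3 or 4, and 28 to 37 without chow WT replicate 1, chow KO replicate 1, HFD KO replicate 1 or HFD WT replicate 1, 3 or 4). Quantile normalization shifted the median log2 difference over all tested genes by -0.15 between diets in KO mice and by -0.10 in WT mice, and between genotypes on HFD by -0.11. In the lists, the 4 receptor calls in KO mice became 7 with quantile normalization, the 5 of Smads 3 with the groups compared alone, and the 3 and 5 of other ligands in KO and WT mice 1 each with a mean FPKM of at least 5.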
